A study of Mus musculus with 4 samples.

Results

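Collagens and laminins are structural proteins of the extracellular matrix, and the 41 chain genes described here were all rows of the deposited table whose symbol has the form of a collagen chain (Col, number, a, number) or of a laminin chain (Lama, Lamb or Lamc with a number). They were 31 collagen and 10 laminin chains of 16015 listed genes. Bulk RNA sequencing was available for colonic epithelial cells of 4 mice, 2 in each of 2 groups, on day 7 of a colitis experiment. Per the study's methods the mice were of a C57BL/6 background and 2 to 4 months old, drank 3% dextran sulfate sodium (DSS), a polysaccharide that injures the colonic epithelium, for 5 days and then water for 2 days. The control mice (labelled WT) were *Bmal1* fl/fl, and the mice labelled *Bmal1* cKO were Villin-CreERT2; *Bmal1* fl/fl and received intraperitoneal tamoxifen for 5 consecutive days. Both groups thus carried the floxed allele and drank DSS, and whether the controls also received tamoxifen was not stated. The Villin promoter drives Cre in intestinal epithelial cells, so that fibroblasts, endothelial cells and leukocytes of a cKO mouse keep *Bmal1*. Crypts were released with 2 mM EDTA and scraping, and no sort is described.

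Fibril-forming collagens (types I, III and V) are trimers of long triple-helical chains that are made mainly by fibroblasts and smooth muscle, and type VI collagen forms the beaded filaments beside them. Basement membranes are built on a sheet of laminin, a heterotrimer of an alpha, a beta and a gamma chain, and on a network of type IV collagen. Of the laminins, laminin-332, which holds *Lama3* and *Lamb3*, is secreted by epithelial cells and holds them to the basement membrane through the integrin of the alpha 6 and beta 4 chains, whereas the chains of type IV collagen and *Lamb1*, *Lamb2* and *Lamc1* are made by several cell types. The chains were placed in 3 lists, namely fibrillar and stromal chains (17 listed), epithelial basement membrane chains (6 listed) and basement membrane chains shared between cell types (13 listed), with 5 chains in no list.

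The values are normalized counts, that is, the reads of each gene after division by a DESeq2 size factor for the library, and they were compared as log2(value + 1), which understates the change of low genes. A mean normalized count of 10 or more was required, and the 13983 genes that reached it were tested with limma, two-sided, with Benjamini-Hochberg adjustment over all of them, and a gene is called here at an adjusted p under 0.05. Each library held between 10312791 and 14156639 reads on listed genes. The labels do not say more of the 2 mice of a group than their number, and with 2 against 2 an exact permutation test of a single value cannot go below p = 0.333. The targeted gene *Bmal1* (listed as *Arntl*) was at 358 and 342 in the controls and at 341 and 289 in the cKO libraries (normalized counts). This difference did not pass the test (log2 fold change, log2FC, -0.16, with a standard error, SE, of 0.14, adjusted p = 0.389 from limma), so all directions below compare libraries as they are labelled, *Bmal1* cKO against control. A count over the whole gene does not check a deletion of part of it, and reads by exon were not analysed here. The log2 fold change also followed GC content, from a median of 1.13 in the tenth of the tested genes with the lowest GC content to -1.35 in the tenth with the highest. The chains had a median GC content of 55.2% against 49.5% for all tested genes, and the counts and medians of the lists are therefore also given from values corrected, library by library, for the GC content and exon length of the genes. Of single genes called before the correction, each named one that lost its call is given.

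The transcription factor BMAL1 binds E-boxes (CACGTG) as a dimer with CLOCK. RefSeq promoters of GRCm38.p6, from 250 bases before to 50 bases after the start, were at hand for 31 of the 41 chain genes (34 promoters). The following stretches of 200 bases before the start are examples from stromal and epithelial chains with a high control level per kb of exon. They are not a ranking, since some chains with a higher level are left out. Each stretch shown has at most 1 base in an annotated exon. Each is written 5′ to 3′ on the strand of the gene, and capitals mark any match to the 4 motifs searched.
Col3a1, chr1:45311338-45311537, plus strand: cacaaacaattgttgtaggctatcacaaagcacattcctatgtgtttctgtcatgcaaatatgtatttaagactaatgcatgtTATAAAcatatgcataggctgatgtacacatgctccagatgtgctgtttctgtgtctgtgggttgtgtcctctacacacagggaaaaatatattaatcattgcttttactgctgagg
Col6a2, chr10:76623631-76623830, minus strand: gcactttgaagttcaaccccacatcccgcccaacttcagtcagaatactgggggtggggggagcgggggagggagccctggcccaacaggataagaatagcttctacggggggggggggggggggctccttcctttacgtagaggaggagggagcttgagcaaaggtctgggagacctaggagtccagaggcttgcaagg
Lamb3, chr1:193301794-193301993, plus strand: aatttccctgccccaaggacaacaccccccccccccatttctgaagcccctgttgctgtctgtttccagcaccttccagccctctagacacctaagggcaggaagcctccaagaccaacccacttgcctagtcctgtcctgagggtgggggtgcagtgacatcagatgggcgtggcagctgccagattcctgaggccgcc
Lama5, chr2:180225860-180226059, minus strand: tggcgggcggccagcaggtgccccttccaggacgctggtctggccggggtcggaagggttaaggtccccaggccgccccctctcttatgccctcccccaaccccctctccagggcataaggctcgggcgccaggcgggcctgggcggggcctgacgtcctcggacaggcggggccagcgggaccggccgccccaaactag
The *Col3a1* stretch had 37.5% GC and held the letters TATAAA, while the *Col6a2*, *Lamb3* and *Lama5* stretches had 61.0%, 60.5% and 74.0% GC and held none of the motifs. On both strands, CACGTG was in 0 of the 34 promoters of the chains and in 7.15% of all 32851 promoters. The AP-1 motif TGANTCA was in 1 of 34 (*Col6a1*) and in 7.81% of all promoters. TATAAA was in 11.8% and 13.6%, and CCAAT in 32.4% and 37.4%, respectively. A match is a string of letters and not a bound site, and its absence says nothing of a factor that binds elsewhere. Several chains are neighbours in the genome. *Col4a1* and *Col4a2* lie head to head on chromosome 8 with an overlap of 22 bases, *Col3a1* and *Col5a2* are 24614 bases apart on chromosome 1, and *Col6a2* and *Col6a1* are 85161 bases apart on chromosome 10. Whether reads were counted by strand is not given in the sources used here, so reads in the overlap of *Col4a1* and *Col4a2* could not be assigned to one of the genes.

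Of the 41 chains, 35 passed the filter on low values and were tested. Of these, 23 (65.7%) were called lower in the cKO libraries, against 27.7% of all tested genes, and 0 were called higher, against 29.0% of all tested genes. Of the tested chains, 9 had a cKO mean under 10 and so passed the filter through the control mice alone, and 5 of these were called lower, as were 18 of the 26 others. The count of chains higher at an unadjusted p under 0.05 was also 0, and edgeR and DESeq2 on the recovered reads called 25 and 28 chains lower and 0 higher. The median log2 fold change was -3.41 over the 35 tested chains and -0.04 over all tested genes. With GC content and length corrected for, the median was -2.73, and 17 chains (48.6%) were called lower against 17.6% of all genes, and 0 higher against 18.3%. Without cKO mouse 1 or cKO mouse 2 the number called lower was 14 and 12, with the remaining cKO mouse assumed to vary like the control mice, and without control mouse 1 or 2 it was 23 and 27. In 32 of the 35 tested chains (91.4%) both control mice were above both cKO mice, against 41.7% of all tested genes. The exceptions were *Lama3* and *Col8a1*, whose groups overlapped, and *Col4a3*, which was higher in both cKO mice but did not pass the test. The 6 chains with too few reads for the test were *Col6a5*, *Col13a1*, *Col14a1*, *Col9a2*, *Col11a2* and *Col4a6*. Each had 1 to 5 reads in the 2 cKO libraries together, and each had a higher normalized count in both control mice. Fewer cells of a type and less RNA per cell cannot be told apart in bulk samples.

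**Figure D1:**
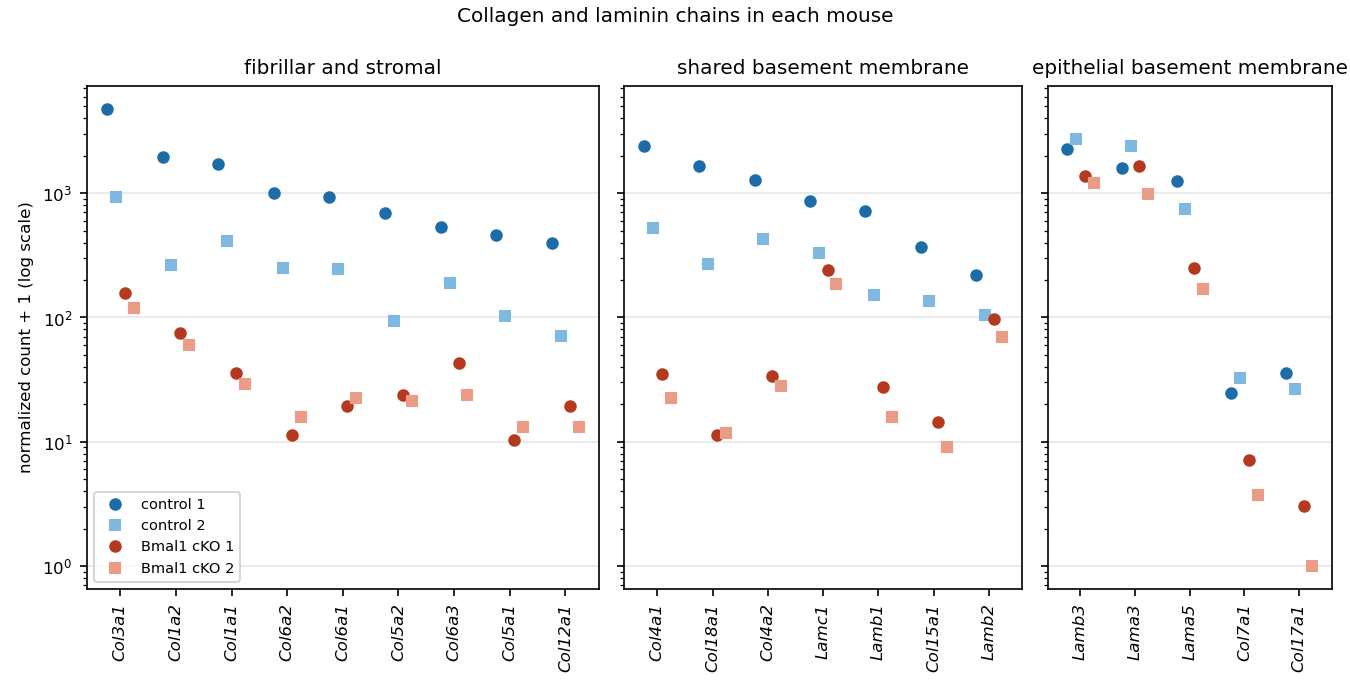
Normalized count + 1 (log axis) of the stromal and shared chains with a mean of at least 100 and of the epithelial chains reported here, 1 point per mouse, in the 3 lists. In each of the 9 fibrillar and stromal chains plotted, those with a mean of at least 100, control mouse 1 was highest, control mouse 2 next and both cKO mice lowest, whereas *Lamb3* and *Lama3* were highest in control mouse 2 with a lowest cKO value of 979 (*Lama3*).

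Of the 14 fibrillar and stromal chains tested, 12 were called lower (85.7%, against 27.7% of all tested genes), 0 higher and 2 were not called, with a median log2 fold change of -3.55. The most abundant was *Col3a1*, the chain of the type III collagen homotrimer of soft tissue, with 4774 and 927 normalized counts in control mice 1 and 2 and 155 and 119 in cKO mice 1 and 2. Both controls were above both cKO mice, and the controls themselves differed 5.15-fold. Its log2FC was -3.94 (SE 0.73, adjusted p = 0.0074).

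Type I collagen, the main fibril of the submucosa, is a trimer of 2 alpha 1 chains and 1 alpha 2 chain. *Col1a1* had 1719 and 408 normalized counts in the controls and 35.0 and 28.4 in the cKO mice. Its log2FC was -4.69 (SE 0.66, adjusted p = 0.0029). *Col1a2* had 1945 and 264 normalized counts in the controls and 74.1 and 59.5 in the cKO mice, for a log2FC of -3.41 (SE 0.89, adjusted p = 0.0228). The cKO values of each gene lay close together and the control values far apart. Per kb of exon, *Col1a1* was at 1.67 and 2.92 times the level of *Col1a2* in the controls and at 0.894 and 0.904 times in the cKO mice. With GC content and length corrected for, *Col1a2* no longer passed the test (log2 fold change -2.68, adjusted p = 0.0674), and *Col1a1* did (-3.54, adjusted p = 0.0143).

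Type V collagen is built into type I fibrils and limits their width. *Col5a1* had 461 and 101 normalized counts in the controls against 9.26 and 12.2, and *Col5a2* had 691 and 93.2 against 22.6 and 20.3. Both fell, with log2 fold changes of -4.22 (SE 0.74, adjusted p = 0.0060) and -3.51 (SE 0.91, adjusted p = 0.0224). *Col12a1*, a fibril-associated collagen, had 396 and 70.3 normalized counts in the controls and 18.5 and 12.2 in the cKO mice, a log2FC of -3.39 (SE 0.83, adjusted p = 0.0184). Of 4 tested chains of type VI collagen, 3 were called lower (75%, against 27.7% of all tested genes). *Col6a1* had 939 and 244 normalized counts against 18.5 and 21.6, *Col6a2* had 1008 and 248 against 10.3 and 14.9, and *Col6a3* had 533 and 187 against 42.2 and 23.0. Their log2 fold changes were -4.51, -5.23 and -3.30, with adjusted p of 0.0028, 0.0022 and 0.0056, and that of *Col6a2* was the lowest of the fibrillar and stromal chains. *Col6a1* and *Col6a2*, which lie next to each other, stood at per kb ratios of 1.77 and 1.87 in the controls and 3.42 and 2.76 in the cKO mice.

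Among the tested fibrillar and stromal chains with a mean under 100, *Col5a3*, *Col16a1* and *Col27a1* were also called lower, with log2 fold changes between -4.38 and -3.22. *Col6a4* was not called (-2.42, adjusted p = 0.136), and neither was *Col8a1*, a short-chain collagen of vessel walls, which had 70.1 and 47.4 normalized counts in the controls and 32.9 and 75.7 in the cKO mice. In all 17 listed chains of this list control mouse 1 was above control mouse 2, with a median ratio of 4.24, whereas over all tested genes it was above in 51.1% with a median ratio of 1.01. Without control mouse 1 the median log2 fold change was -2.65 and without control mouse 2 it was -4.90, and 12 and 13 chains were called lower. The 9 chains with a mean of at least 100 were called in the absence of control mouse 1 as well, with log2FC from -4.22 (*Col6a2*) to -1.98 (*Col1a2*). Without cKO mouse 1 or 2 the count fell to 6 and 5 of 14. With GC content and length corrected for, 9 were called lower (64.3%, against 17.6% of all tested genes), with a median of -3.001, and *Col1a2*, *Col16a1* (-2.06, adjusted p = 0.0522) and *Col27a1* (-1.95, adjusted p = 0.130) were not.

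Of 12 tested basement membrane chains that several cell types make, 6 were called lower (50%, against 27.7% of all tested genes), 0 higher and 6 were not called, with a median log2 fold change of -3.85. The chains of the most common type IV collagen, *Col4a1* and *Col4a2*, both fell. *Col4a1* had 2413 and 529 normalized counts in the controls and 33.9 and 21.6 in the cKO mice (log2FC -5.33, SE 0.71, adjusted p = 0.0024), and *Col4a2* had 1281 and 429 against 32.9 and 27.0 (-4.59, SE 0.52, adjusted p = 0.0015). Other chains of this family are restricted to few basement membranes and had few reads. *Col4a5* had 48.2 and 9.32 normalized counts against 7.20 and 8.11 and was not called (-1.38, adjusted p = 0.229). *Col4a3* had 5.07 and 10.2 against 24.7 and 12.2, which was the only positive log2 fold change among the 35 tested chains (1.16, SE 0.72, adjusted p = 0.216).

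The multiplexins, *Col15a1* and *Col18a1*, are collagens with heparan or chondroitin sulfate chains that lie in basement membranes, and cleavage of *Col18a1* releases endostatin. *Col18a1* had 1658 and 267 normalized counts in the controls and 10.3 and 10.8 in the cKO mice. Its log2FC of -5.85 (SE 0.83, adjusted p = 0.0030) was the lowest of all 35 tested chains. *Col15a1* had 369 and 136 normalized counts against 13.4 and 8.11, a log2FC of -4.30 (SE 0.57, adjusted p = 0.0023). Both remained called once GC content and length were corrected for, *Col18a1* at -4.41 and *Col15a1* at -3.50.

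Of the shared laminin chains, *Lamb1*, the beta chain of several laminins, had 723 and 151 normalized counts in the controls and 26.7 and 14.9 in the cKO mice (log2FC -3.98, SE 0.76, adjusted p = 0.0082). *Lamc1*, the gamma chain of most laminins, had 866 and 327 against 239 and 184, and *Lamb2*, a beta chain found in muscle and vessels, had 220 and 104 against 95.7 and 68.9. Neither of these was called (*Lamc1*, -1.34, adjusted p = 0.0518, and *Lamb2*, -0.89, adjusted p = 0.115). The groups did not overlap in either gene, as in 11476 of the 13983 tested genes. With GC content and length corrected for, the sign of *Lamb2* turned, to 0.25 (adjusted p = 0.652). Among the alpha chains, *Lama4* of vessels and *Lama2* of muscle were not called at -2.41 and -3.72. *Lama1* passed the filter through the controls alone. It was read 133 and 18 times in control mice 1 and 2, and 2 times in the cKO libraries together. It had a ratio of pooled reads, scaled by the size factors, of 54.7, with an exact 95% interval of 14.9 to 456 that covers counting error only. It was called (-4.30, adjusted p = 0.0208), but not without cKO mouse 1 (adjusted p = 0.112) or cKO mouse 2 (adjusted p = 0.105). In 12 of the 13 listed chains control mouse 1 was above control mouse 2, *Col4a3* being the exception. Without control mouse 1 the median was -2.68 with 6 chains called, and without control mouse 2 it was -4.97 with 10 called. Without cKO mouse 1 or cKO mouse 2, 4 were called lower each time. The corrected values gave 6 called lower (50%, against 17.6% of all tested genes) and a median of -3.35.

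**Figure D2:**
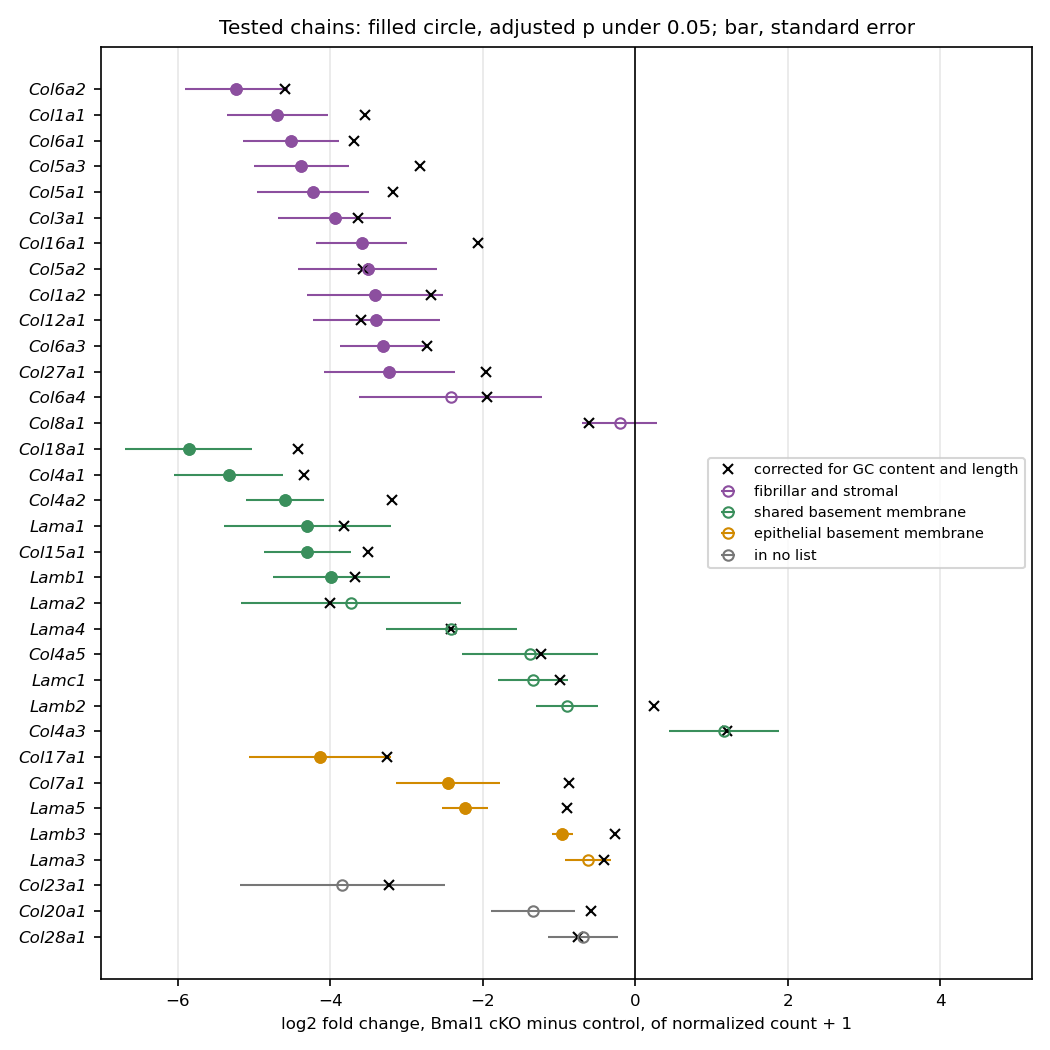
Log2 fold change (cKO minus control, of normalized count + 1) of the tested chains that are reported here with its SE, filled where the adjusted p was under 0.05. Crosses give the value once GC content and exon length were corrected for, which lies near 0 for *Lamb3* (-0.26) and above 0 for *Lamb2* (0.25) but below -2 for 11 of the 12 fibrillar and stromal chains that were called.

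Of 6 tested epithelial basement membrane chains, 5 were called lower (83.3%, against 27.7% of all tested genes), 0 higher and 1 (*Lama3*) was not called, and the median log2 fold change was -1.72. *Col7a1* and *Col17a1*, which are 2 of the 5, passed the filter on low values through the control mice alone. *Lamb3*, the beta chain of laminin-332, had 2256 and 2754 normalized counts in the controls and 1377 and 1198 in the cKO mice (log2FC -0.96, SE 0.14, adjusted p = 0.0029). *Lama3*, its alpha chain, had 1598 and 2382 normalized counts in the controls and 1650 and 979 in the cKO mice, so that the groups overlapped (-0.62, SE 0.30, adjusted p = 0.130). *Lamb3* and *Lama3* were lower in control mouse 1 than in control mouse 2, opposite to the stromal chains, and control mouse 1 was above control mouse 2 in 2 of the 6 epithelial chains, *Lama5* and *Col17a1*.

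*Lama5*, an alpha chain of laminins in the epithelial basement membrane, had 1254 and 746 normalized counts in the controls and 247 and 169 in the cKO mice, and fell by 2.24 on the log2 scale (SE 0.30, adjusted p = 0.0025). *Col7a1*, the collagen of anchoring fibrils, had 23.7 and 31.3 normalized counts against 6.17 and 2.70 (-2.45, SE 0.68, adjusted p = 0.0281). *Col17a1*, a transmembrane collagen of hemidesmosomes, had 34.6 and 25.4 normalized counts in the controls, 2.06 in cKO mouse 1 and 0 in cKO mouse 2. These were 71 control reads and 2 cKO reads. Scaled by the size factors, the pooled reads had a ratio of 25.7, with an exact 95% interval of 6.86 to 216. The log2 fold change of -4.13 (adjusted p = 0.0139) depends on the pseudocount. Both collagens were thus low in every library, at under 6 normalized counts per kb.

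With GC content and length corrected for, the median of the epithelial chains was -0.87, and 2 of the 6 remained called (33.3%, against 17.6% of all tested genes), *Col17a1* among them (-3.25, adjusted p = 0.0422). *Lamb3* moved to -0.26 (adjusted p = 0.150), *Lama5* to -0.90 (adjusted p = 0.0576) and *Col7a1* to -0.86 (adjusted p = 0.342). Without control mouse 2 or without cKO mouse 2, 3 of the 6 (*Lamb3*, *Lama5* and *Col17a1*) were called lower.

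The contrast of the stromal with the epithelial chains was then taken within each library, where the scaling of the library cancels. The summed level per kb of the stromal chains was 1529 and 340 normalized counts per kb in the controls and 48.9 and 47.8 in the cKO mice, whereas that of the epithelial chains was 1037 and 1293 against 657 and 461. The ratio of stromal to epithelial level was 1.47 in control mouse 1, 0.263 in control mouse 2, 0.0744 in cKO mouse 1 and 0.104 in cKO mouse 2. The groups did not overlap, but the controls differed from each other by more than control mouse 2 differed from the cKO mice on the log scale. The difference of mean log2 values, stromal minus epithelial, was -0.05 and -2.20 in the controls and -3.15 and -2.38 in the cKO mice, and the groups differed by -1.64 with a pooled SD of 1.14. This value gets no test, since the lists were chosen with results known. Without control mouse 1 the difference was -0.56, and without control mouse 2 it was -2.71.

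**Figure D3:**
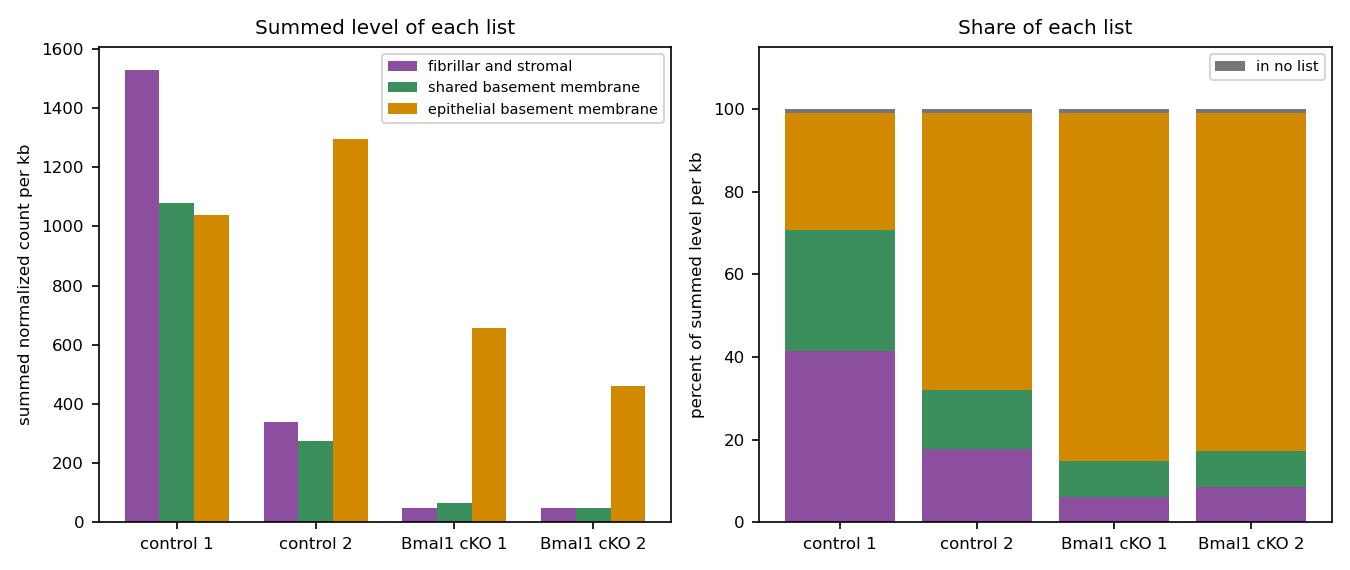
Summed normalized count per kb of exon of each list (left) and its share of the summed level of all 41 chains (right) in each mouse. The epithelial basement membrane chains made up 28.2% of the level in control mouse 1, 67.1% in control mouse 2 and over 81% in both cKO mice.

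As a share of the summed level of all 41 chains, the stromal chains took 41.5% and 17.6% in the controls and 6.27% and 8.48% in the cKO mice. The epithelial chains took 28.2% and 67.1% against 84.3% and 81.7%, and the shared chains 29.3% and 14.3% against 8.47% and 8.88%. Among the chains named here, the highest mean levels per kb in the controls were those of *Lamb3* (379 ± 53.3), *Col3a1* (290 ± 277), *Col4a1* (197 ± 179), *Lama3* (185 ± 51.6) and *Col1a1* (162 ± 141; SD, n = 2), and each differed from the next by less than the larger SD of the pair. In the cKO mice the order was *Lamb3* (195 ± 19.2), *Lama3* (122 ± 44.2), *Lamc1* (25.5 ± 4.68), *Lama5* (18.3 ± 4.84) and *Col3a1* (14.0 ± 2.62; SD, n = 2), of which *Lama5* and *Col3a1* differed by less than the larger SD of the pair. *Lamb3* was at 4.68 and 27.4 times the level of *Lamb1* in the controls and at 77.2 and 121 times in the cKO mice. Within the collagens the control and cKO ranges overlapped, and *Col1a1*, *Col1a2* and *Col3a1* together were 37.8% and 31.7% of the collagen level per kb in the controls and 36.5% and 32.0% in the cKO mice.

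Genes that modify, fold and cleave collagen were mixed. Of 23 tested, 12 (52.2%) were called lower and 2 (8.70%) higher, against 27.7% and 29.0% of all tested genes, with a median log2 fold change of -1.80. Of the 12, 4 had a cKO mean under 10 and so passed the filter through the control mice alone. The median of the list moved to -1.24 without control mouse 1 and to -2.64 without control mouse 2. The number called lower also changed with the mouse left out, as it did for all tested genes. *Serpinh1*, the collagen-specific chaperone HSP47, had 1068 and 133 normalized counts in the controls and 13.4 and 18.9 in the cKO mice (-4.48, adjusted p = 0.0116), and *Plod1*, a lysyl hydroxylase, fell by 1.51 on the log2 scale (adjusted p = 0.0056). The 2 that rose also serve the folding of other secreted proteins. *P4hb*, protein disulfide isomerase and a subunit of prolyl hydroxylase, had 9008 and 9935 normalized counts against 17942 and 17327 (0.90, adjusted p = 0.0023), and *Ppib*, a prolyl isomerase of the endoplasmic reticulum, had 843 and 920 against 1413 and 1598 (0.77, adjusted p = 0.0029). *Mia3*, which loads procollagen into transport carriers, was not called (0.15, adjusted p = 0.370, and -0.31 after the correction, adjusted p = 0.116). With GC content and length corrected for, 9 of the list (39.1%) were called lower and 3 (13.0%) higher, with a median of -1.66. Of all tested genes, 17.6% and 18.3% were called lower and higher in these values.

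Of 14 tested receptors of collagens and laminins, 7 (50%) were called lower and 3 (21.4%) higher, against 27.7% and 29.0% of all tested genes, with a median of -0.87, and without cKO mouse 1 or 2 the number called lower was 3 and 4. Of the 7 receptors called lower, 1 had a cKO mean under 10 and so passed the filter through the control mice alone. Once GC content and length were corrected for, 2 of the 14 were called lower and 2 higher (14.3% each), near the 17.6% and 18.3% of all tested genes, so that these counts do not set the receptors apart. The chains of the laminin-332 receptor went opposite ways. *Itga6* had 6002 and 6231 normalized counts in the controls and 12729 and 10993 in the cKO mice (0.95, SE 0.12, adjusted p = 0.0019), while *Itgb4* had 5910 and 6892 against 2228 and 1852 (-1.65, SE 0.14, adjusted p = 6.71e-04). After the correction *Itga6* stayed called at 0.80 (adjusted p = 0.0080) and *Itgb4* did not, at -0.33 (adjusted p = 0.0719). *Itgb1*, the common beta chain of collagen and laminin receptors, rose from 5031 and 4529 to 7669 and 8202 normalized counts (0.73, adjusted p = 0.0032) and was not called after the correction (0.17, adjusted p = 0.235). *Itga7*, an alpha chain for laminin receptors, fell by 1.36 on the log2 scale (adjusted p = 0.0064) and was at -0.36 after the correction (adjusted p = 0.292).

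Of 26 tested proteins that lie beside collagens and laminins in the matrix, 16 (61.5%) were called lower and 1 (3.85%) higher, against 27.7% and 29.0% of all tested genes, with a median of -3.01. Of the 16, 7 had a cKO mean under 10 and so passed the filter through the control mice alone. After the correction 11 of the 26 (42.3%) were called lower and 1 higher, against 17.6% and 18.3%. The number called lower was 11 without control mouse 1, 18 without control mouse 2, and 5 and 6 without cKO mouse 1 and 2. *Thbs1*, thrombospondin 1, had 2796 and 10674 normalized counts in the controls and 240 and 214 in the cKO mice (-4.59, adjusted p = 0.0022), with control mouse 2 above control mouse 1. *Eln*, elastin, and *Mgp*, matrix Gla protein, were called at -5.78 and -5.52 (adjusted p = 0.0192 and 0.0014), and both passed the filter through the control mice alone. *Eln* had 542 and 25.4 normalized counts in the controls and 1.03 and 1.35 in the cKO mice. It was no longer called after the correction (-4.62, adjusted p = 0.0564). *Agrn*, a heparan sulfate proteoglycan of basement membranes, had 1166 and 1257 against 748 and 497 (-0.99, adjusted p = 0.0104) and was at -0.15 after the correction (adjusted p = 0.530). *Dcn*, decorin, had 4286 and 402 against 131 and 219 and was not called (-2.95, adjusted p = 0.0612), but was after the correction (-4.21, adjusted p = 0.0318). The 1 gene that rose was *Smoc2*, a matricellular protein that marks colonic stem cells, with 116 and 173 normalized counts against 493 and 626 (1.97, SE 0.24, adjusted p = 0.0019).

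Markers of other cell types moved with the stromal chains. The summed normalized count of 10 fibroblast markers was 9543 and 2362 in the controls and 334 and 443 in the cKO mice, and 8 of 10 were called lower, against 27.7% of all tested genes. For 10 endothelial markers the sums were 2415 and 600 against 85.4 and 104, with 9 called lower. For 10 smooth muscle and pericyte markers they were 2562 and 2283 against 68.9 and 91.9, with 8 called lower. Of the markers called lower, 4 fibroblast, 6 endothelial and 7 smooth muscle and pericyte markers had a cKO mean under 10. These passed the filter through the control mice alone. Control mouse 1 was above control mouse 2 in 9 of the 10 fibroblast markers, with a median ratio of 2.75, in 10 of 10 endothelial markers, with a median ratio of 4.23, and in 6 of 10 smooth muscle and pericyte markers, with a median ratio of 1.29. *Dcn* (4286 and 402 normalized counts in the controls) was a large part of the fibroblast sum, and *Pi16* (19.4 and 48.3) was the fibroblast marker that was higher in control mouse 2. *Pi16* of fibroblasts and *Emcn* of endothelial cells were at 0 in both cKO mice, and the other markers of these 3 lists kept reads in at least 1 of them. *Dcn* had 131 and 219 normalized counts in the cKO mice, *Pdgfra* of fibroblasts 40.1 and 18.9, and *Vwf*, the von Willebrand factor of endothelial cells, 37.0 and 36.5. *Vwf* was no longer called in corrected values (-1.50, adjusted p = 0.113). In these values 8 fibroblast, 7 endothelial and 6 smooth muscle and pericyte markers of 10 each were called lower, against 17.6% of all tested genes. Before the correction, their median log2 fold changes were -2.75, -3.20 and -6.18 without control mouse 1. Without control mouse 2 they were -4.50, -5.20 and -5.31. The number of endothelial markers called lower was 3 without cKO mouse 1 and 2 without cKO mouse 2, and that of fibroblast markers was 5 without cKO mouse 1. *Pecam1*, an adhesion protein of endothelial cells, had 528 and 126 normalized counts against 10.3 and 29.7, and *Dpt*, dermatopontin of fibroblasts, had 427 and 130 against 6.17 and 10.8. Of 2 listed glial markers 1 was called lower (50%, against 27.7% of all tested genes), and it passed the filter through the control mice alone.

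Leukocyte markers had sums of 7140 and 18049 in the controls and 1037 and 916 in the cKO mice, with 9 of 10 called lower (against 27.7% of all tested genes), 8 after the correction (against 17.6%), and 4 and 5 without cKO mouse 1 and 2. Of the 9 called lower, 2 had a cKO mean under 10 and so passed the filter through the control mice alone. In 7 of the 10 leukocyte markers control mouse 1 was above control mouse 2, with a median ratio of 1.69. The sum was higher in control mouse 2 through *S100a8* (1424 and 8066 normalized counts) and *S100a9* (1096 and 7187), proteins of neutrophils. The 13 epithelial markers had sums of 201181 and 268292 against 172362 and 194900, of which *Muc2* gave 62753 and 101737 against 24129 and 37690, with 3 called lower and 3 higher (23.1% each, against 27.7% and 29.0% of all tested genes), and all 13 were above 0 in every library. After the correction 0 were called lower and 6 (46.2%) higher, against 17.6% and 18.3% of all tested genes, and the median moved from -0.21 to 0.34. Without control mouse 1 it was 5 lower and 2 higher, and without cKO mouse 1 or 2 it was 2 lower and 0 higher. *Krt8*, a keratin of simple epithelia, had 33319 and 37623 normalized counts against 39915 and 38937 (0.16, adjusted p = 0.450), and was called higher after the correction (1.07, adjusted p = 0.0097). Those called higher before it were *Lgr5*, a receptor of stem cells (2.79, adjusted p = 0.0081), *Slc26a3*, a chloride exchanger of surface colonocytes (2.13, adjusted p = 0.0049), and *Krt20*, a keratin of differentiated cells (0.68, adjusted p = 0.0198). *Muc2*, the mucin of goblet cells, was called lower (-1.41, adjusted p = 0.0172). It was not called after the correction (-1.15, adjusted p = 0.0515), nor without control mouse 2 (adjusted p = 0.0923), cKO mouse 1 (adjusted p = 0.224) or cKO mouse 2 (adjusted p = 0.0890). *Cldn3*, a claudin, and *Krt18*, a keratin of simple epithelia, were also called lower (-1.55 and -1.39) and were at 0.25 and -0.55 after the correction (adjusted p = 0.250 and 0.0533). The part of these cell types in the falls of the collagen and laminin chains was not tested.

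**Figure D4:**
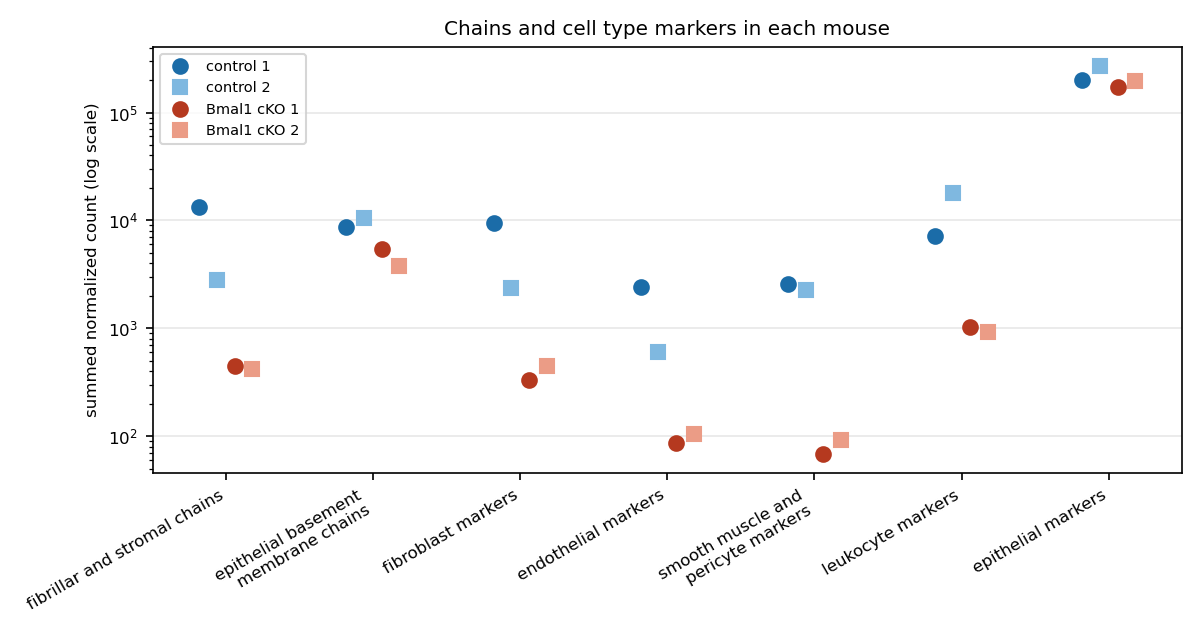
Summed normalized count (log axis) of the fibrillar and stromal chains, the epithelial basement membrane chains and 5 lists of cell type markers, 1 point per mouse. The fibroblast and endothelial sums had the order of the stromal chains in the controls, with mouse 1 above mouse 2, and all sums plotted were lower in both cKO mice than in both controls, with epithelial marker sums between 172362 and 268292 in all 4 mice.

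Of the 5 chains in no list, 3 were tested and 0 called. *Col23a1*, a transmembrane collagen, had 112 and 7.62 normalized counts in the controls and 1.03 and 1.35 in the cKO mice, with the widest gap between the controls of all the chains (14.7-fold), and was not called (-3.84, adjusted p = 0.0561). *Col28a1* had 28.7 and 28.8 normalized counts against 20.6 and 14.9 (-0.69, adjusted p = 0.246), and *Col20a1* had 28.7 and 31.3 against 15.4 and 8.11 (-1.34, adjusted p = 0.0857). For these 2 the control mice were alike and neither passed the test. The remaining 2, *Col9a2* and *Col13a1*, were not tested.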

How the data were processed

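RNA of colonic epithelial cells was sequenced from 4 mice, which were grouped by the titles of their libraries (2 control, 2 *Bmal1* cKO). The authors aligned reads to GRCm38 with STAR and normalized counts with DESeq2. The counter, the annotation release and any use of strand are not given in the sources used here, and the labels and the methods name different library kits. The values the authors deposited are normalized counts, a signal made by dividing the reads of a gene by a size factor for the library. The authors also deposited the mean, log2 fold changes, the errors of these, Wald statistics (a score) and p-values with adjusted p-values. None of these columns was used.

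All deposited values were whole multiples of 1 read (100% in each library), which gave 13792634 and 14156639 reads in the controls and 13331145 and 10312791 in the cKO mice. Reads were not counted by molecule. Log2(value + 1) was fitted with limma 3.58.1 (R 4.3.3, mean-variance trend) over genes with a mean of at least 10. Exon length, GC content and coordinates came from GENCODE vM21 (16008 of 16015 genes matched), and promoters from RefSeq. The correction for GC content and length was a loess fit of each library (span 0.3). Alternatives were pseudocounts of 0.5 and 5, no filter, a mean of at least 50, scaling by library total or TMM, edgeR 4.0.16 and DESeq2 1.42.0 on the recovered reads, a block for the mouse number, and leaving out each mouse. The fits were tested on simulated data.

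The chains and lists were chosen with earlier results of these data known. 1 of the tested chains is not reported here. Values in every mouse are given for the other epithelial basement membrane chains and for stromal and shared chains with a mean of at least 100. Marker lists are given by their sums. From each further list the 3 highest genes and, among called genes with a mean of at least 100, the 2 largest falls and the 2 largest rises are given. Other chains and markers named were chosen after their values were seen.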

Additional observations from a re-analysis of the deposited data

How the results depend on the processing

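None of the 15 alternatives called a chain higher among those it tested. These were 24 chains at a mean of at least 50, 41 without the filter and 35 otherwise. Over the 22 chains and *Bmal1*, 343 values were recomputed, of which 307 kept their direction and their side of the threshold, 27 lost the call, 7 gained one and 2 turned. Those 2 were *Lamb2* at 0.25 with the correction for GC content and length, with and without the block for the mouse number. That correction lowered the number of all genes called lower from 3871 to 2462 and higher from 4059 to 2562, and the epithelial basement membrane chains called lower from 5 to 2. The replicate block with the same correction gave 2192 and 2232 genes and 1 epithelial chain. A mean of at least 50 left 3 epithelial chains called lower, since *Col7a1* and *Col17a1* were then not tested, and moved the stromal minus epithelial difference from -1.64 to -2.44. Library total scaling moved the median of all genes by -0.22, gave 4885 genes lower and 3091 higher, and 26 chains lower. The block alone gave 27 chains lower, and 16 with the correction. Over all tested genes, the deviations of same-numbered mice from their group means had a correlation of -0.09. A value near 0 over all genes cannot show whether these mice shared more than a number, which was not tested. Leaving out 1 mouse at a time gave 2205 to 2852 genes called lower and 2654 to 3154 higher. It gave 12 to 27 chains, 5 to 13 stromal, 3 to 4 epithelial and 4 to 10 shared chains called lower, and a stromal minus epithelial difference of -2.71 to -0.56. Apart from the fewer samples and genes tested in these fits, the cause of each change was not tested. The 6 chains that were not tested were under the mean of 10, and had 1 to 5 reads in the cKO libraries together.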
